A study of Saccharomyces cerevisiae with 4 samples.

Results

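The smaller subunits of RNA polymerase II are encoded in budding yeast by 10 genes, RPB3, RPB4, RPB5, RPB7, RPB8, RPB9, RPB10, RPB11, RPC10 and RPO26. They were described here, out of 6002 annotated open reading frames (ORFs), from molecules that overlap each gene with 500 bases on either side, on both strands. The 10 windows held 2523 of 425462 distinct isoforms and 8124 of 1833796 reads (0.443%). All 10 genes were found by name in the R64 annotation.

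The measurements came from TIF-Seq, which joins the ends of a molecule so that its capped start and its poly(A) end are read as a pair. The only strain, FSY3636, is MATa in the S288c background and has RRP6, an exonuclease of the nuclear exosome, replaced by kanMX4 (delta rrp6). It was grown in rich YPAD medium to mid-log phase at OD 1. The 4 libraries, from 2 cultures with 2 preparations each, share 1 deposited count column, so no value has a replicate error, the depth of each library is unknown, and every interval below covers counting error alone. The deleted gene, RRP6, had 0 reads on its strand, which allows up to 1.64 CPM (counts per 1000000 reads). No wild-type library was analysed here, so nothing is said about change upon loss of RRP6.

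RNA polymerase II transcribes messenger RNA genes. Its active centre is formed by the large subunits Rpo21 and Rpb2, around which the smaller subunits are arranged. Rpb3 and Rpb11 form a dimer on which the enzyme is assembled, together with the small zinc-binding subunits Rpb10 and Rpc10 (also called Rpb12). Rpb4 and Rpb7 form a stalk that can leave the core enzyme, and Rpb9 lies at the jaw and acts in start site choice and elongation. Rpb5, Rpo26 (also called Rpb6), Rpb8, Rpb10 and Rpc10 are also subunits of RNA polymerases I and III, which make ribosomal and transfer RNA.

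All 10 genes had mRNA molecules that ran from before the start codon to past the stop codon, called covering reads. Each of the 10 had at least 100 of them, as did 20.4% of all ORFs, and at least 1 was seen for 74.7% of ORFs. Together they held 6070 covering reads, a level of 3310 CPM (95% Poisson interval 3227 to 3394). A molecule gives 1 read whatever its length, but recovery depends on length, so the coding length is given beside each level and each gene was also ranked among ORFs whose coding length differed by at most 10%.

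The subunits that serve all RNA polymerases had the higher counts. RPO26 (YPR187W, chromosome XVI, 911257 to 911800, plus strand, 468 coding bases), whose product lies at the base of the clamp, had 2061 covering reads or 1124 CPM (1076 to 1173). RPB10 (YOR210W, chromosome XV, 738320 to 738532, plus strand, 213 bases) followed with 876 reads or 478 CPM (447 to 510). RPC10 (YHR143W-A, chromosome VIII, 387233 to 387445, plus strand, 213 bases) had 793 reads or 432 CPM (403 to 464). The intervals of the zinc-binding pair overlapped, and those of RPO26 lay above all others. RPB8 (YOR224C, chromosome XV, 760825 to 761265, minus strand, 441 bases) had 520 reads or 284 CPM (260 to 309). RPB5 (YBR154C, chromosome II, 548362 to 549009, minus strand, 648 bases), which forms part of the jaws, had 443 reads or 242 CPM (220 to 265). The intervals of RPB8 and RPB5 overlapped as well.

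The subunits found in RNA polymerase II alone were lower. RPB11 (YOL005C, chromosome XV, 315813 to 316175, minus strand, 363 bases) had 359 covering reads or 196 CPM (176 to 217), and its dimer partner RPB3 (YIL021W, chromosome IX, 312905 to 313861, plus strand, 957 bases) had 326 reads or 178 CPM (159 to 198). In the stalk, RPB7 (YDR404C, chromosome IV, 1276654 to 1277169, minus strand, 516 bases) had 320 reads or 175 CPM (156 to 195). Its partner RPB4 (YJL140W, chromosome X, 150961 to 151626, plus strand, 666 bases), which cells can lack, had 197 reads or 107 CPM (92.9 to 124). RPB9 (YGL070C, chromosome VII, 374459 to 374827, minus strand, 369 bases), also dispensable, had 175 reads or 95.4 CPM (81.8 to 111). By raw reads, not matched for length, the dimer partners did not differ beyond their intervals, whereas the stalk partners did. Among ORFs of like length the stalk genes RPB7 and RPB4 stood at percentiles 73.5 and 73.3. The dimer genes RPB11 and RPB3 stood at 83.7 and 92.7 there. RPB4 and RPB9 overlapped each other and were the lowest of the 10.

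The 5 shared genes thus ranged from 443 to 2061 reads and the 5 polymerase II genes from 175 to 359, without overlap. Their median levels were 432 and 175 CPM, a ratio of 2.48. This split by role was chosen after the values were known, and genes are not replicates, so it is a description without a test. Length differs between the sets, with medians of 441 and 516 coding bases. Among ORFs of like length the sets did overlap, with percentiles from 73.9 to 92.7 (median 89.1) for the shared genes and from 72.5 to 92.7 (median 73.5) for the others. RPB3 stood at 92.7 there, level with RPB10. The median ORF of like length had 32 covering reads for RPB3 and 28.5 for RPB10. All 10 were above the 50th percentile, with a median of 83.9. Counted by distinct isoforms the sets also overlapped, from 109 to 312 and from 68 to 116. When molecules that end before A-rich genome sequence were left out, the shared genes ranged from 42 to 1714 reads and the others from 3 to 298, because RPB8 and RPB3 lost most of their reads.

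**Figure D1:**
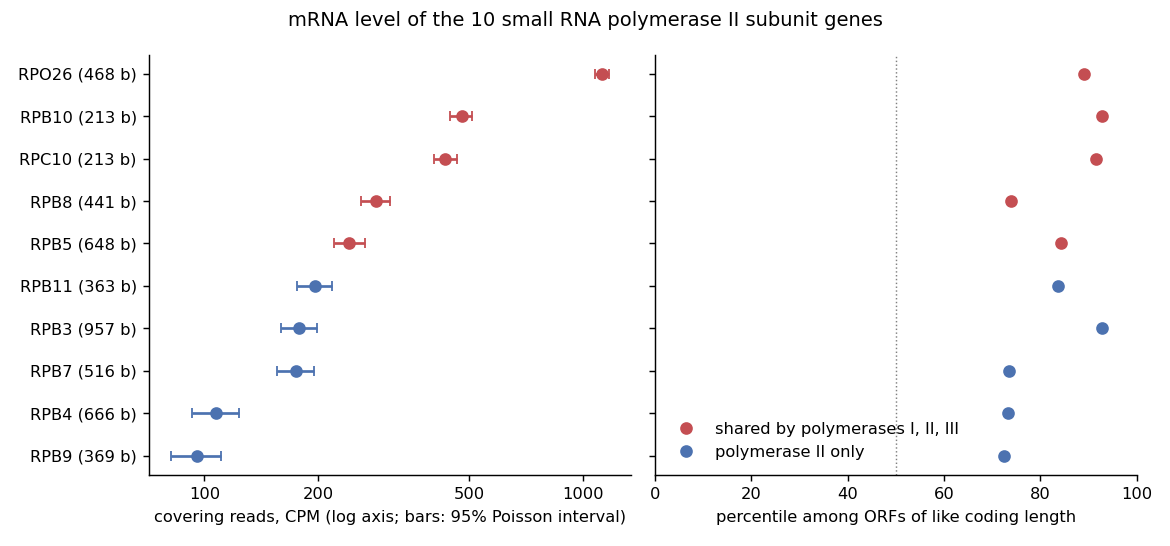
Left, covering reads of each gene in CPM on a log axis, with 95% Poisson intervals from the pooled libraries and the coding length in bases beside the name. Right, the percentile of each gene among ORFs of like coding length, with the 50th percentile dotted. Genes shared by the polymerases (red) lie at 242 to 1124 CPM and those of polymerase II alone (blue) at 95.4 to 196 CPM, while the percentiles of the sets overlap.

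Genes of the same machinery outside the set gave further reference points. The large subunit genes RPO21 (5202 coding bases) and RPB2 (3675 bases) had 0 covering reads each, which allows up to 1.64 CPM, with 28 and 86 molecules that start inside the ORF. Long molecules are poorly recovered, so these counts give no ratio to the smaller subunits. Of 19 subunits found in polymerase I or III but not II, 15 had a covering read and 10 had at least 100, with a median like-length percentile of 72.2. RPA34 of polymerase I (771 reads, 420 CPM) and RPC19 of polymerases I and III (453 reads, 247 CPM) led that list. Rpc19 and Rpc40 take the places of Rpb11 and Rpb3 in polymerases I and III, and RPC40, named here after its value was seen, had 375 reads. All 12 general and elongation factors of polymerase II had covering reads (median percentile 69.7), led by the TATA-binding protein gene SPT15 (588 reads) and by SPT4 (393). The 6 assembly and import factors, led by NPA3 (326) and GPN2 (163), had a median percentile of 65.9.

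The most used start sites are shown with 12 bases on either side, because each is the single 5′ end used most by its gene, with 22.0% (RPB11, level with a second start) to 61.1% (RPB9) of covering reads. They were read 5′ to 3′ on the gene's strand from the R64 genome, with the start base in capitals.
RPB3 (chrIX:312831-312855, plus): gaaaagggagacActttttatatca
RPB4 (chrX:150855-150879, plus): agaaagagacttGaatgggttgctg
RPB5 (chrII:549088-549112, minus): ctaacaagggtcAacagatcacgag
RPB7 (chrIV:1277349-1277373, minus): aataacgtagacAagctcacttcgt
RPB8 (chrXV:761289-761313, minus): ctataaaagcccAgttgccagctca
RPB9 (chrVII:374840-374864, minus): agccaaaagagcAagttaaactccc
RPB10 (chrXV:738246-738270, plus): gggatgatagttAaagtgtattcaa
RPB11 (chrXV:316196-316220, minus): agctacgtagccAccaaaccagata
RPC10 (chrVIII:387191-387215, plus): taataagaacgtAcccaagaataaa
RPO26 (chrXVI:911229-911253, plus): agtgtaaagattAaggctacaagtg

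At all 10 sites a purine follows a pyrimidine, the usual initiator of yeast promoters. Over covering reads, 92.1% (Wilson interval 91.4 to 92.8) began with a purine after a pyrimidine, against 86.8% of the covering reads of all ORFs and a median of 90.7% over the 2411 ORFs with at least 20 covering reads. RPC10 was highest at 96.8% and RPB4 lowest at 61.4%.

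The 5′ leaders, measured from the start to the A of the start codon (position 0), had a median of 43.5 bases over the 10 genes, against 40 over the 2411 ORFs. The stalk genes had the longest. RPB7 had a median leader of 192 bases (quartiles 192 and 196), and 195 of its 320 reads (60.9%) began at position −192. It was the only gene of the 10 with a median of at least 150 bases, which 6.76% of ORFs reach. The genome between that start and the start codon holds no ATG. RPB4 had a median leader of 94 bases, with 94 reads at −94 and 44 at −99. An ATG at −92, within the sequence shown above, opens a reading frame of 8 codons that stops before the RPB4 start codon. It lay within 189 of the 197 molecules (95.9%, 92.2 to 97.9), and just past the 5′ end of those from the most used start. RPB4 was the only gene of the 10 with an ATG between its most used start and its start codon. The share of all ORFs with such an ATG was not computed, so whether this is unusual is not known.

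In the assembly dimer, RPB3 used a pair of starts, at −62 with 114 reads and at −35 with 92 reads. RPB11 spread its starts more, with 79 reads each at −33 and −25, 56 at −37 and 36 at −76, and its top start held 22.0% of reads, the lowest share of the 10. Among the shared genes, RPB5 had a median leader of 91 bases, RPB10 51, RPB8 36, RPC10 30 and RPO26 23. RPB9 had 25, with 107 of 175 reads at −25.

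RPB8 also started directly before its ORF. Besides 251 reads at −36, it had 67 reads at −6 and 45 at −4. Leaders under 10 bases made up 131 of its 520 reads (25.2%, 21.7 to 29.1). It was the only gene of the 10 with at least 20% such reads, which 10.3% of ORFs have. In RPO26 the share was 8.3% (171 reads) and in the other genes at most 5.71%.

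**Figure D2:**
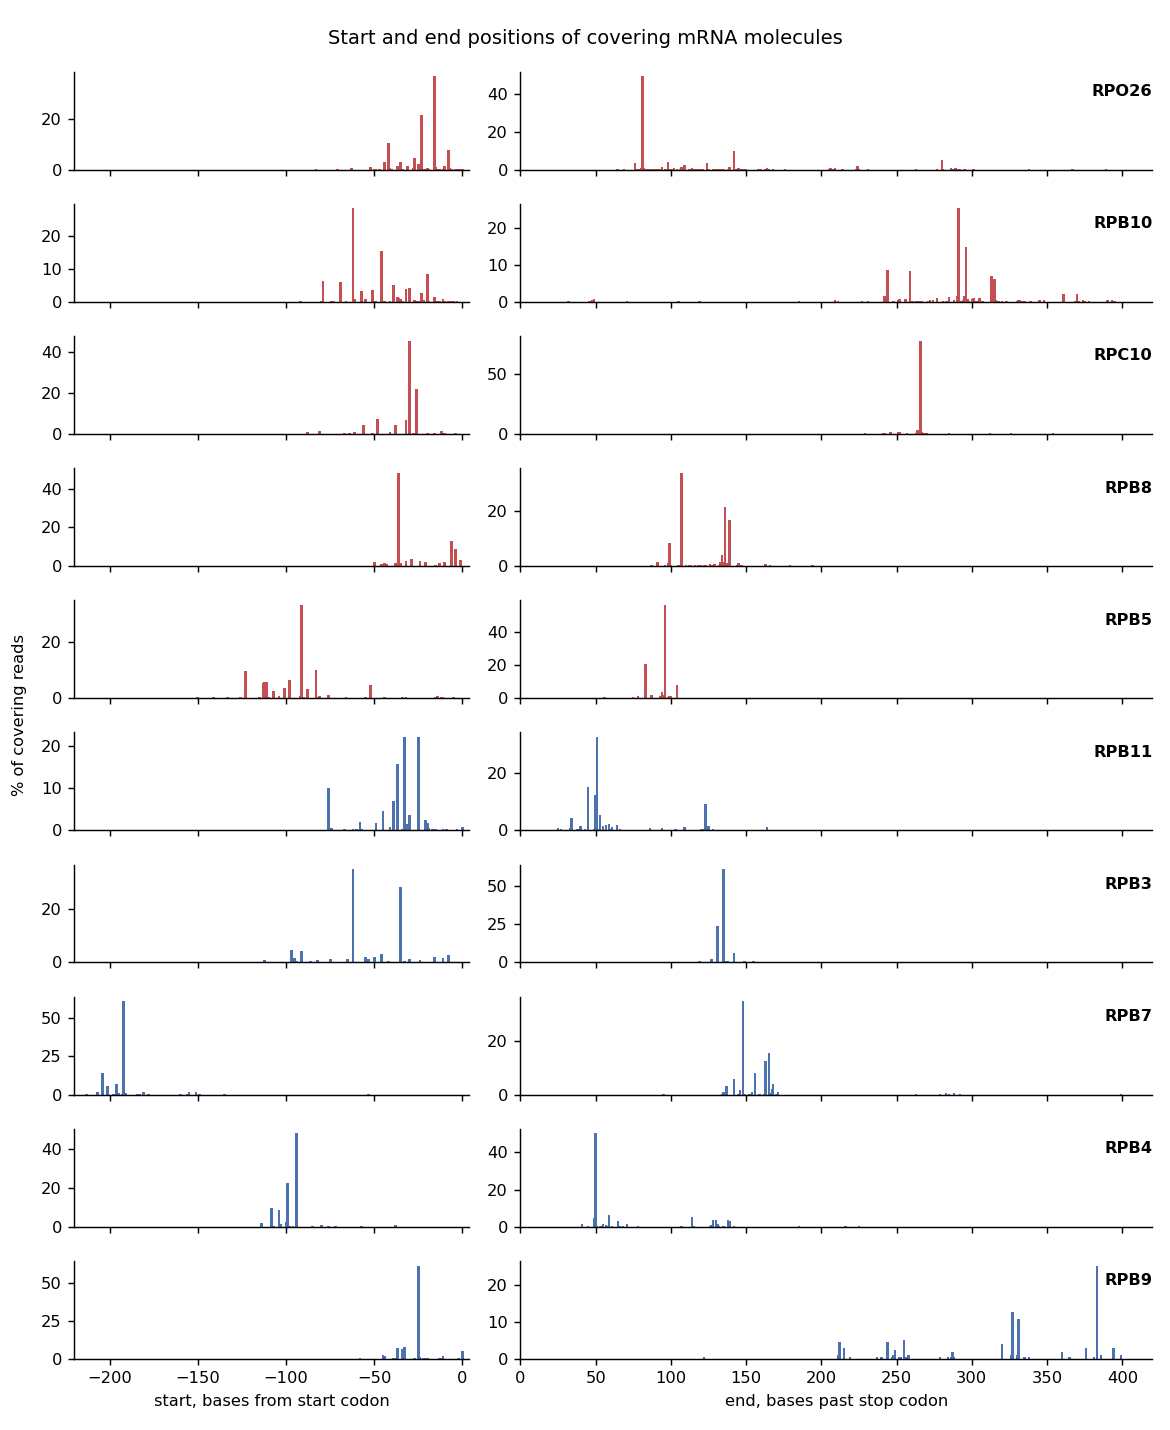
Share of each gene's covering reads at each start (left, bases from the start codon) and each end (right, bases past the stop codon), pooled over the libraries, with each row scaled to its own maximum. RPB7 starts far upstream around −192, RPB8 has starts at −36 and next to the start codon, and RPB9, RPB10 and RPC10 end 200 or more bases past the stop codon in most molecules.

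The 3′ ends also differed between genes. The median distance from stop codon to end was 134 bases over the 10 genes, against 119 over the 2411 ORFs, and it ranged from 50 to 330. A median of at least 200 bases was found in 3 of the 10, RPB9, RPB10 and RPC10, against 15.6% of ORFs. These have short ORFs, so their molecules still had median lengths of 725, 550 and 509 bases. RPB11, with an ORF of about the length of RPB9, had a 3′ median of 51 bases and the shortest molecules, at 451 bases. RPB3 had the longest, at 1150 bases.

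How sharply the ends were placed also differed, as the most used sites show. They are given with 24 bases before and 5 after, on the gene's strand, with the last base of the molecule in capitals.
RPC10 (chrVIII:387687-387716, plus): tatttatagtgattttagtttgtaCaatgt
RPB4 (chrX:151652-151681, plus): ctagtaatgaattttcaccctgtgGaagtt
RPB9 (chrVII:374071-374100, minus): tgatttcatctatatgctaatcttCtggct
RPB5 (chrII:548261-548290, minus): ctgcaataaaccaatcactagtatGaaaat
RPB3 (chrIX:313972-314001, plus): ttataatctaaagtacgaagcaaaCaaaaa
RPB8 (chrXV:760713-760742, minus): atgccatgtaaaatactaaaaattGaaaaa

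RPC10 ended most sharply, with 620 of 793 reads (78.2%, 75.2 to 80.9) at a single base, 266 bases past the stop codon. RPB3 placed 199 of its reads at 135 and 78 at 131, and RPB5 248 at 96 and 90 at 83. At the other extreme, RPB9 put 44 of 175 reads (25.1%, 19.3 to 32.1) at 383 and 22 at 327. RPB10 was alike by this measure, with 223 of 876 reads (25.5%, 22.7 to 28.4) at 291. With sites merged within 10 bases RPB9 used 4 end regions with at least 5% of reads each. The region from 376 to 399 held 33.7%, that from 320 to 338 held 30.9%, that from 237 to 258 held 17.7% and that from 211 to 219 held 9.14%. The median share of the main region was 92.4% over the 10 genes and 87.9% over the 2411 ORFs. Read numbers were not matched in that comparison, and merging can join more sites where reads are many.

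Separate end regions with at least 5% of reads lay downstream of the main region in RPB4, RPB10, RPB11 and RPO26. Several such regions are usual. Their median number, with the main region included, was 1.5 over the 10 genes and 2 over the 2411 ORFs (quartiles 1 and 3). In RPB4, 146 reads ended from 41 to 78 bases past the stop codon, 12 (6.09%, 3.52 to 10.3) from 107 to 115 and 36 (18.3%, 13.5 to 24.3) from 126 to 142. In RPB10, 794 reads ended from 242 to 348 and 46 (5.25%, 3.96 to 6.93) from 361 to 378. In RPB11, 300 reads ended from 25 to 66 and 43 (12.0%, 9.02 to 15.7) from 120 to 128. In RPO26, 1811 reads ended from 64 to 176, and 162 (7.86%, 6.78 to 9.1) ended from 277 to 301.

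In the sequences above, RPB3 and RPB8 ends are followed by runs of A. Ends followed by at least 6 A among the next 10 genome bases made up 99.1% of covering reads in RPB3 and 91.9% in RPB8. They made up 58.7% in RPB5, 42.2% in RPB7, and from 1.26% to 26.9% in the other genes. Pooled over the 10 genes the share was 30.1%, and the share over all ORFs was not computed. Where the genome itself has A, the tail and the template cannot be told apart by base, and priming inside a longer molecule was not tested. The letters AATAAA, the known positioning signal, were searched on the gene's strand in the 80 bases before the most used end and found in 1 of 10 genes (RPB5) and in 20.7% of the 2411 ORFs. TATATA, an efficiency signal that can overlap copies of itself, was found there in 2 of 10 (RPC10 and RPB11) and in 45.1% of ORFs.

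Most of the genes are faced by a neighbour past the stop codon. In 9 of the 10, all but RPB11, the next ORF there lies on the other strand, as for 51.4% of ORFs. The gap between the facing ORFs ranged from 86 bases (RPB4) to 441 bases (RPB7). For 7 of the 9 genes the neighbour had covering reads of its own, so the median 3′ ends of both mRNAs could be compared. They overlapped by 170 bases for RPB8 and DSC3, 98 for RPB5 and the riboflavin synthesis gene RIB7, 95 for RPB4 and the mannosyltransferase gene YUR1, and 82 for RPB3 and the histidine synthesis gene HIS6. The overlap was 9 bases for RPC10 and DCD1 and 2 bases for RPB10 and MGM1, the last from 3 MGM1 reads. RPO26 and the myosin light chain gene MLC2 did not overlap by their medians, with a value of −37. The counts of the neighbours are low, from 3 to 68 reads. The share of overlapping mRNAs over all facing ORFs was not computed, so these overlaps cannot be called particular to the subunit genes.

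Several of these molecules reached into the facing ORF. All 18 YUR1 mRNAs ran into the RPB4 ORF (Wilson lower bound 82.4%), and any that ran through it were not counted apart. Of 25 DSC3 mRNAs, 18 ended inside RPB8 (72%, 52.4 to 85.7). Of 20 RIB7 mRNAs, 10 ended at or inside the end of RPB5 (50%, 29.9 to 70.1). In the other direction, 51 of 197 RPB4 mRNAs ended inside YUR1 (25.9%, 20.3 to 32.4). Of 175 RPB9 mRNAs, 62 ended inside AFT1, which encodes an iron-responsive regulator (35.4%, 28.7 to 42.8), and AFT1 itself had 0 covering reads at 2073 coding bases. Of the RPO26 mRNAs, 250 ended inside MLC2 or beyond it (12.1%, 10.8 to 13.6). How often molecules reach the facing ORF over all such pairs of the genome was not computed. Each molecule was read alone, so whether both RNAs occur in the same cell is not measured.

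**Figure D3:**
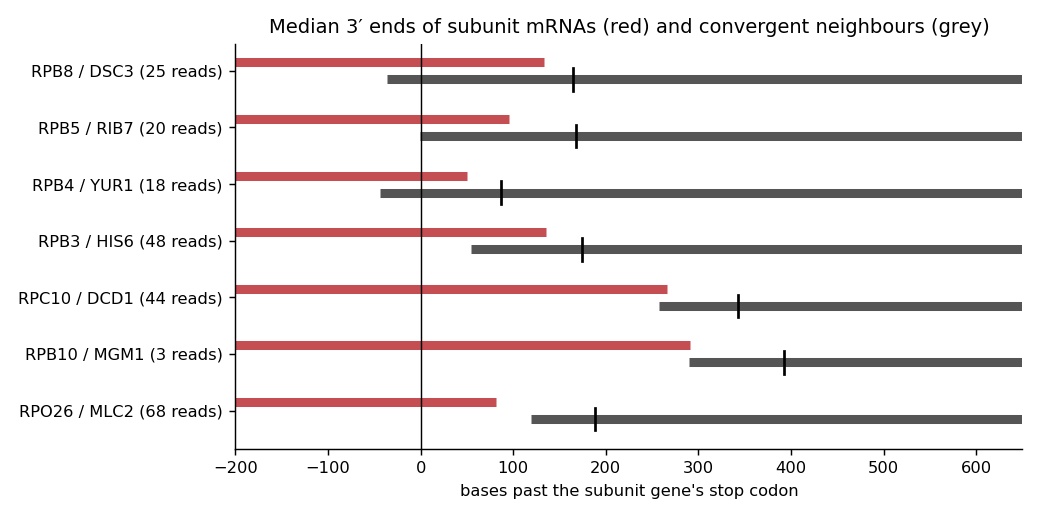
Median 3′ end of each subunit mRNA (red, from the left) and of the mRNA of the facing neighbour (grey, from the right), in bases past the stop codon of the subunit gene. Short black bars mark the neighbour's stop codon, the long line the subunit's stop codon, and the names carry the neighbour's covering reads. The bars overlap in 6 of the 7 pairs, by up to 170 bases for RPB8 and DSC3, and not for RPO26 and MLC2. The share over all facing ORFs was not computed.

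Most molecules on the genes' strand covered the whole ORF. Of 6462 reads that touch the ORFs, 93.9% (93.3 to 94.5) did, 5.6% (5.07 to 6.19) started inside the ORF and ran past the stop codon (late starts), and 0.464% (0.325 to 0.662) started upstream and ended inside it (early ends). None lay wholly inside, which allows up to 0.0594%. Over all ORFs the shares were 85.0%, 11.4% and 3.13%, with the lengths of the ORFs not matched. The medians over the 2420 ORFs with at least 50 sense reads were 79.5%, 15.3% and 0.418%, so the early-end share of the 10 genes lay below the pooled value but close to that of the median ORF.

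Early ends were concentrated in RPB4. It had 22 of the 30, or 9.61% (6.43 to 14.1) of its sense reads, and was the only gene of the 10 above 5%, as are 19.5% of these 2420 ORFs. They fell on 18 isoforms with 16 end positions from 35 to 401 bases after the start codon, and no isoform had more than 3 reads. Of the 22 reads, 3 ended before A-rich genome. RPO26 had 4 early ends, RPB7 2 and RPB10 2.

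Late starts were most frequent in RPB3, the longest ORF, with 85 of 411 sense reads (20.7%, 17.0 to 24.9). It was the only gene above 20%, as are 41.3% of the same ORFs. They were scattered over 66 positions with at most 6 reads each, and 16.5% of them began with a purine after a pyrimidine, against 96.6% of its covering reads. In the other genes late starts were from 0.875% to 6.64% of sense reads.

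Single start positions inside the ORF with at least 10 reads were found in 4 of the 10 genes, against 29.5% of those ORFs. They are shown in the same form as the starts above.
RPO26 at 114 (chrXVI:911359-911383, plus): cgacggtaatgaGaacttcgaagat
RPO26 at 342 (chrXVI:911587-911611, plus): gaccaaatatgaAagggcaagaatt
RPB8 at 31 (chrXV:761222-761246, minus): atgatatattccAagtctcggaagt
RPB10 at 118 (chrXV:738426-738450, plus): tgtcaagattagGtctaaaaagata
RPB11 at 26 (chrXV:316137-316161, minus): cagattcgaactGttccttctgggt

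RPO26 had 57 reads from position 114 on 6 isoforms and 38 from position 342 on 4 isoforms. Both positions lie after its only intron (chromosome XVI, 911277 to 911352, 76 bases), and only 1 of its 136 late starts fell inside the intron. Most reads from 114 ended at 81 past the stop codon (49 of 57), the main end of the gene. Those from 342 ended at 280 (34 of 38), where 104 of the 2061 covering reads ended. The next ATG in frame would leave 71 and 53 of the 155 codons. Neither start has a pyrimidine before it, and 4.41% of the late starts of RPO26 began with a purine after a pyrimidine, against 91.7% of its covering reads.

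RPB8 had 21 reads from position 31 on 8 isoforms, beginning with a purine after a pyrimidine as its covering reads do in 93.5%. The next ATG in frame there would leave 50 of 146 codons. RPB10 had 13 reads at 118 and RPB11 10 reads at 26, each on 1 isoform. Whether reads that share both ends are copies made by PCR was not tested.

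Other RNAs overlapped the windows on either strand. In all, 771 of the 8124 window reads (9.49%, 8.87 to 10.1) lay on the other strand, against a median of 31% over ORFs with reads. The first share is pooled over reads and the second is a median over ORFs not matched for level. By gene the counts ran from 86 of 2291 reads (RPO26, the lowest share) to 93 of 282 (RPB9, the highest). Most of the 771 reads touched neighbouring ORFs, and 221 touched no ORF of their strand. Of these 221, 124 lay at RPB11, 46 at RPB8, 43 at RPC10 and at most 2 at any other gene.

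RPB11 was overlapped by an antisense RNA along its ORF. Its window had 124 antisense reads on 78 isoforms beside 359 covering mRNA reads. The main group of 104 reads started from position 350 to 426, around the RPB11 stop codon, and ended at a median of −134 (quartiles −137 and −107), upstream of all RPB11 mRNA starts, with a median length of 502 bases. Its most used start is shown with 12 bases on either side.
RPB11 antisense (chrXV:315796-315820, plus): tattaaactcctAtatatcaaaatg

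Of these 104 reads, 67 (64.4%, 54.9 to 73.0) spanned the whole RPB11 ORF, and 0 ended before A-rich genome. No isoform had more than 8 reads. The median start lay 421 bases upstream of the start codon of TOP1, the next gene on the RPB11 strand, which encodes DNA topoisomerase I and had 5 covering and 17 early-ending reads. With those of a smaller group of 16 reads starting further away, 69 antisense reads spanned the ORF. At least 10 spanning antisense reads were found in 2 of the 10 genes, RPB11 and RPB4, against 2.12% of all ORFs and 4.81% of the 2160 ORFs of 213 to 957 coding bases. The 11 of RPB4 lay on the strand of the facing YUR1, and only 2 of the 37 antisense reads in the RPB4 window touched no ORF of that strand. At RPB11 all 124 antisense reads touched no ORF of their strand.

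RPB5 had a short upstream RNA in its own orientation. It comprised 134 reads on 70 isoforms starting from −571 to −484, with a median start at −523, a median end at −226 and a median length of 299 bases. The start lay 239 bases upstream of the start codon of CNS1, a co-chaperone gene on the other strand with 141 covering reads. Of the 134 reads, 48 (35.8%, 28.2 to 44.2) ended past −150. Only 2 molecules that started at or before −484 covered the RPB5 ORF, against 443 covering reads in all.

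**Figure D4:**
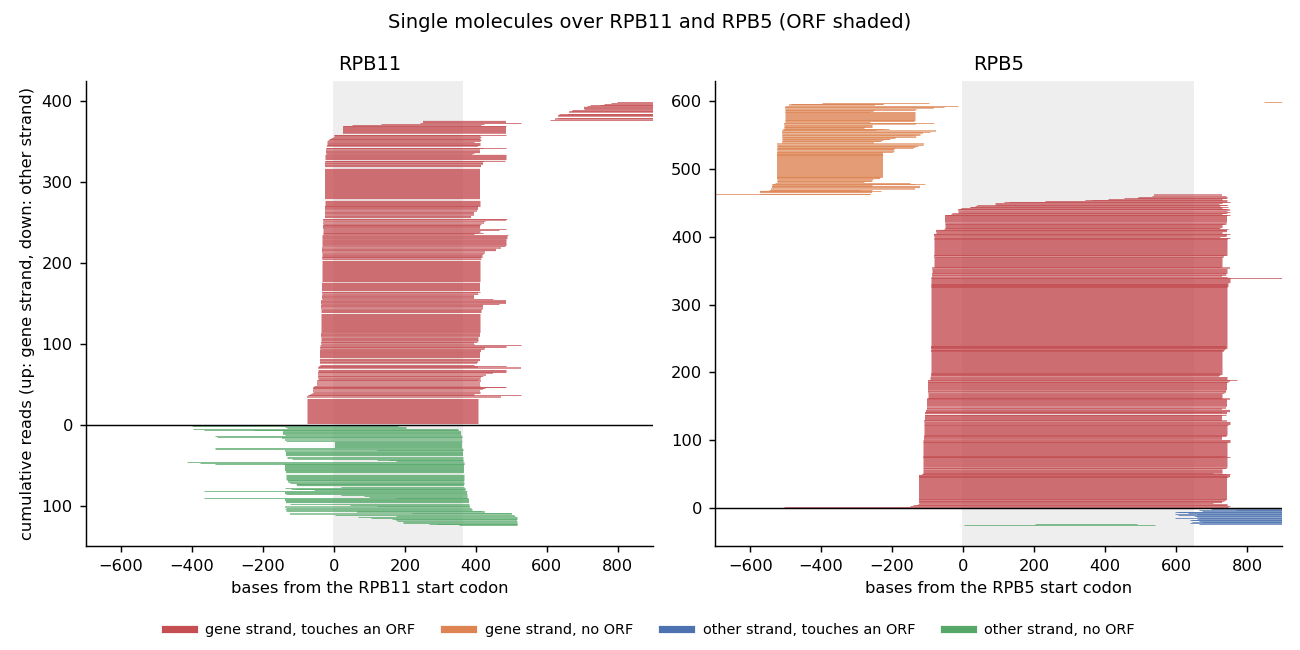
Molecules over RPB11 (left) and RPB5 (right) by distance from the start codon, each drawn from its start to its end with a thickness that follows its reads and stacked by start, with the ORF shaded. Above the line are molecules of the gene's strand and below it those of the other strand. Green molecules lie on the strand opposite RPB11 (124 reads, of which 69 span the whole ORF), and orange ones lie upstream of RPB5 on its own strand (134 reads in the main group).

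The next ORF before the start codon lies on the other strand for 7 of the 10 genes, as for 51.6% of ORFs. At least 10 reads started on the other strand within 500 bases upstream of the start codon in 6 of the 10 genes, against 35.1% of ORFs. In 4 of them the reads were mostly mRNA of the neighbour. RPB7 had 120 such reads, of which 118 covered the mitochondrial ribosomal protein gene MRP20. RPB9 had 73, of which 69 covered MNP1, another gene of that kind, and RPB10 had 20, all from NPT1. RPO26 had 14, of which 10 covered PZF1, which encodes TFIIIA, a factor of RNA polymerase III. The median starts of the facing mRNAs lay 188 bases apart for RPB9, 207 for RPO26, 232 for RPB7 and 404 for RPB10.

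At RPB8 and RPC10, where the upstream neighbour lies on the same strand, the divergent reads touched no ORF of their own strand. RPB8 had 46, of which 27 shared 1 isoform from −282 to −593, which runs antisense into the end of ISU2, an iron-sulphur cluster scaffold gene. RPC10 had 42, with no isoform above 3 reads. In its main group of 37, which started around −267, 25 ended before A-rich genome. RPB3, RPB4, RPB5 and RPB11 had from 0 to 2 divergent reads.

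The promoters were searched for known elements, chosen after the values were seen. GATGAG, the core of the PAC element named for genes of RNA polymerases A and C (now I and III), was searched on both strands in the 250 bases before the start codon. It was found in 0 of the 10 genes, and in 16 of the 19 genes for subunits of polymerase I or III only (84.2%), 4 of 6 assembly factor genes and 17% of all ORFs. The 5 shared subunits are thus without these letters in that window. CGGGTAA, bound by Reb1, was found on either strand in 2 of 10 genes (RPB9 and RPB11) and in 7.03% of ORFs. TATAAA, on either strand in the 150 bases before the most used start, was found in 1 of 10 (RPB8) and in 30.4% of the 2411 ORFs. In RPB8 the letters began at −11 from that start, and whether they act as a promoter element was not tested.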

How the data were processed

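TIF-Seq was run on 4 libraries of delta rrp6 cells. The deposited table gives each distinct pair of start and end with a whole-number count in 1 column for all libraries, per the file headers. CASAVA, Novoalign 2.07.10 and build R64 were used per the submitters' processing notes, and whether PCR copies were collapsed is not given in the sources used here. The deposited count was used unchanged, positions were taken as 1-based, and names, ORFs and sequence came from the RefSeq copy of R64.

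Isoforms were classed per ORF by strand and position (covering, early end, late start, inside). CPM is covering reads per 1833796 reads times 1000000, with exact Poisson intervals at 95%. Shares carry Wilson intervals at 95%, a count of 0 was read as up to 3 reads, and leaders and 3′ distances were taken with at least 20 covering reads, as genome distances. End sites were merged within 10 bases. Divergent means within 500 bases. Python 3.11.15, numpy 2.4.6, pandas 2.3.3, scipy 1.17.1 and matplotlib 3.10.9 were used. The classes were tested on simulated data.

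A single group in 1 pooled column allows no test between samples, and none was run. The genes and lists were chosen with earlier results of these data known. All 10 genes are named, and in other lists the 2 with most covering reads. Alternatives were a minimum of 2 or 5 reads per isoform, counting isoforms once, leaving out ends before A-rich genome, other scales, windows, length bands and merging distances.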

Additional observations from a re-analysis of the deposited data

How the results depend on the processing

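No paired analysis was possible because the libraries form 1 group and are pooled in 1 column; for the same reason leaving out each culture or preparation was not run. With at least 2 reads per isoform the summed level was 3448 CPM, the covering share 96.7%, the share of purine after pyrimidine 94.2%, the antisense share of window reads 5.77%, the median like-length percentile 84.4 and the median share of the main end region 86.7%. With at least 5 reads these were 3221 CPM, 97.3%, 96.0%, 2.88%, 84.0 and 81.5%. The median leader was then 49 bases, the median 3′ distance 121 bases, and 3 genes had at least 10 divergent reads. With each isoform counted once the covering share was 85.0%, the antisense share 20.3%, the purine share 82.8%, the leader 39.5 bases and the main end region 78.2%. Without ends before A-rich genome the level was 2893 CPM, the percentile 76.4, the leader 36 bases and the 3′ distance 135 bases (9 genes), the purine share 91.4% and the main end region 86.6%. Scaled to reads covering exactly 1 ORF the level was 4291 CPM. The antisense share was 6.19% with 250 and 11.2% with 1000 bases on each side. At least 10 divergent reads were found in 6 genes in the main setting and in 4 with at least 2 reads per isoform. Within 250 bases 2 genes had at least 10. No share of all ORFs is given for these other settings. The percentile was 81.7 with coding lengths within 20%. Merging within 5 and 20 bases gave main end regions of 89.7% and 98.4%. Alternatives added after the data were seen gave ratios of shared over polymerase II medians of 2.6, 2.67, 1.65 and 3.88 (2 reads, 5 reads, isoforms once, no A-rich ends), and 44 and 15 spanning antisense reads at RPB11 with 2 and 5 reads per isoform, against 69. The cause of these shifts was not tested beyond the counts each setting removes.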

Other observations

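In some genes a start and an end went together far more often than their separate use would give. In RPB10, which encodes a zinc-binding subunit shared by the polymerases, 52 of the 55 covering reads that began at −79 ended 244 bases past the stop codon, where 77 of its 876 reads ended, so that independent pairing would give 4.83 reads (10.8-fold fewer). In RPB11, 33 of the 36 reads that began at −76 ended at 45, where 54 of 359 ended, against 5.42 expected (6.09-fold). Pairs with at least 20 reads and at least 5 times the expected number were found in these 2 of the 10 genes, against 17.4% of the 1223 ORFs with at least 100 covering reads. Each such pair is a single isoform, and whether its reads are PCR copies of few molecules was not tested.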
